A study of Mus musculus with 2 samples.

Results

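The smooth muscle contractile regulators examined here are 10 genes, chosen by GENCODE M21 symbol, of the 43346 Ensembl genes quantified in the embryonic mouse heart. They are the transgelins Tagln, Tagln2 and Tagln3, the calponins Cnn1, Cnn2 and Cnn3, caldesmon (Cald1), smoothelin (Smtn), myosin light chain kinase (Mylk) and leiomodin 1 (Lmod1). RNA-seq of whole hearts at embryonic day 15.5, from strain B6NCrl with no genotype or treatment named in the labels and with both sexes mixed, was available as 2 libraries of 1 group. Replicate 1 was a pool from 78 embryos and replicate 2 a pool from 62 embryos, so the spread between them is one between pools and not between single animals. With 1 group no conditions can be compared, and since 2 libraries allow an exact sign-flip test no p under 0.5, values are given as descriptions with their spread.

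In smooth muscle, calcium and calmodulin switch on the kinase encoded by Mylk, which phosphorylates the myosin regulatory light chain and so starts contraction. Calponin and caldesmon sit on the actin filament and restrain myosin, transgelin and smoothelin bind actin filaments and stress fibres, and leiomodin starts new actin filaments. Each family has a member typical of smooth muscle and relatives used in other cells. Tagln2, Cnn2 and Cnn3 are broadly expressed, Tagln3 is a neuronal gene, and Mylk3 and Lmod2 are the heart's own kinase and leiomodin. In the embryonic heart, smooth muscle lies in the walls of the coronary and great vessels, and some smooth muscle genes are also active for a time in young cardiac muscle cells.

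On mm10, with the positions of GENCODE M21, Tagln (ENSMUSG00000032085) lies at chr9:45929619-45936058 on the minus strand, Tagln2 (ENSMUSG00000026547) at chr1:172500047-172507380 on the plus strand and Tagln3 (ENSMUSG00000022658) at chr16:45711230-45724608 on the minus strand. Cnn1 (ENSMUSG00000001349) lies at chr9:22099216-22109630, Cnn2 (ENSMUSG00000004665) at chr10:79988584-79996062 and Cnn3 (ENSMUSG00000053931) at chr3:121426497-121458207, all on the plus strand. Cald1 (ENSMUSG00000029761) lies at chr6:34598500-34775473 on the plus strand and Smtn (ENSMUSG00000020439) at chr11:3517523-3540612 on the minus strand. Mylk (ENSMUSG00000022836) lies at chr16:34745210-35002420 and Lmod1 (ENSMUSG00000048096) at chr1:135324807-135368065, both on the plus strand.

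The transgelins and the calponins are close relatives, and the coding stretch at which each trio is most alike is shown to make clear how far reads can tell them apart. In the stretches below, taken from the GENCODE M21 transcripts, capitals mark the positions at which the 3 paralogs are not all the same. The transgelin stretch covers coding bases 22 to 81 of each gene, counted from the A of the start codon, and 13 of its 60 bases differ.
Tagln: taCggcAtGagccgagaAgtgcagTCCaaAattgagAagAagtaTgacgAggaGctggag
Tagln2: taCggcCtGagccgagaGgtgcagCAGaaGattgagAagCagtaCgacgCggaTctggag
Tagln3: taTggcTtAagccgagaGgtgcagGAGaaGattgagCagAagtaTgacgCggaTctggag
The calponin stretch covers coding bases 598 to 657 of Cnn1 and Cnn3 and 604 to 663 of Cnn2, and again 13 of 60 bases differ.
Cnn1: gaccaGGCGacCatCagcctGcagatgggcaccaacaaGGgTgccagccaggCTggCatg
Cnn2: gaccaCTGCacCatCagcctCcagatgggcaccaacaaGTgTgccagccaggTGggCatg
Cnn3: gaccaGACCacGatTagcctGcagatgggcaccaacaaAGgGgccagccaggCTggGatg

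Over the whole coding sequence, identity was 70.0% between Tagln and Tagln2, 70.3% between Tagln and Tagln3 and 70.2% between Tagln2 and Tagln3. Among the calponins it was 65.4% for Cnn1 with Cnn2, 70.0% for Cnn1 with Cnn3 and 68.7% for Cnn2 with Cnn3. The longest run of identical bases between the transcripts of any of these pairs was 23 bases, between Cnn1 and Cnn3. For 9 of the 10 members the deposited posterior SD of the gene's count was 0 in both libraries, as for genes whose reads are divided with no other gene. For Smtn it was 1.49 reads in replicate 1 and 2.07 reads in replicate 2, of 5604 and 6410 expected reads.

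All 10 members reached 1 TPM in both libraries, a level that 58.2% of the 21474 protein-coding genes reached. TPM is the authors' level of a transcript per unit of length, scaled to a fixed total in each library. Replicate 1 had 41221435 expected counts on Ensembl genes and replicate 2 had 38457396. Each read over 1 kilobase of effective length equalled 0.0308 TPM in replicate 1 and 0.0345 TPM in replicate 2. The labelled tissue was checked against its markers, and cardiac troponin T (Tnnt2) had 7677 TPM in replicate 1 and 6085 TPM in replicate 2. In RNA from whole hearts, fewer cells of a type and less RNA per cell cannot be told apart.

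The broadly expressed relatives were the most abundant members. Cnn3, a calponin of many non-muscle cells, stood at 286 TPM in replicate 1 and 335 TPM in replicate 2 (mean 310 ± 34.6 TPM, SD, n = 2). Tagln2, the transgelin of blood, epithelial and many other cells, had 226 TPM in replicate 1 and 267 TPM in replicate 2. Cnn2, which is found in fibroblasts, leukocytes and endothelium as well as muscle, had 170 TPM in replicate 1 and 197 TPM in replicate 2. These 3 genes kept the same order in both libraries, and their ranges did not overlap. Cald1, whose protein exists in a light form of many cells and a heavy form of smooth muscle, followed at 132 TPM in both libraries (132 ± 0.509 TPM). Among the 13823 genes that reached 1 TPM in both pools, Cnn3 was above 97.0% and Cald1 above 92.8%.

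Of the genes typical of smooth muscle, Cnn1, Smtn and Tagln formed a second tier, below the broadly expressed relatives and Cald1. Cnn1, the smooth muscle calponin, had 78.8 TPM in replicate 1 and 77.7 TPM in replicate 2. Smtn, smoothelin, had 65.7 TPM in replicate 1 and 83.3 TPM in replicate 2. Tagln, also called SM22 alpha, had 56.9 TPM in replicate 1 and 79.1 TPM in replicate 2. The ranges of Cnn1 and Smtn overlapped, as did those of Smtn and Tagln, so the order of these 3 genes is not set beyond the spread between pools. All of them were below Cald1 in both libraries by the TPM of the whole gene. Cald1 transcripts with a complete coding sequence had less, with 16.7 TPM (light) and 2.40 TPM (heavy) in replicate 1. In replicate 2 they had 19.5 and 2.41 TPM. By reads, Cald1 had 5543 in replicate 1 and 5115 in replicate 2, against 5804 and 5109 for Cnn1 and 5604 and 6410 for Smtn. Tagln had fewer, at 2746 and 3410 reads. Tagln, the lowest of the 3 by mean, was 11.9-fold above Mylk, the next in order, in replicate 1 and 8.28-fold above it in replicate 2.

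The lowest tier held Mylk, Tagln3 and Lmod1. Mylk had 4.78 TPM in replicate 1 and 9.55 TPM in replicate 2, from 1049 and 1875 reads. Tagln3 had 1.51 TPM in replicate 1 and 6.77 TPM in replicate 2, from 56 and 224 reads. Lmod1, the leiomodin of smooth muscle, had 1.69 TPM in replicate 1 and 2.97 TPM in replicate 2, from 211 and 331 reads. All 3 were higher in replicate 2. The range of Tagln3 overlapped both others, and its order with Lmod1 switched, with Tagln3 below Lmod1 in replicate 1 and above it in replicate 2. Mylk and Lmod1 did not overlap. Lmod1 was above 9.84% of the detected genes and Mylk above 32.5%. The median of the 10 members was 76.4 TPM, and that of all detected genes was 14.1 TPM.

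**Figure D1:**
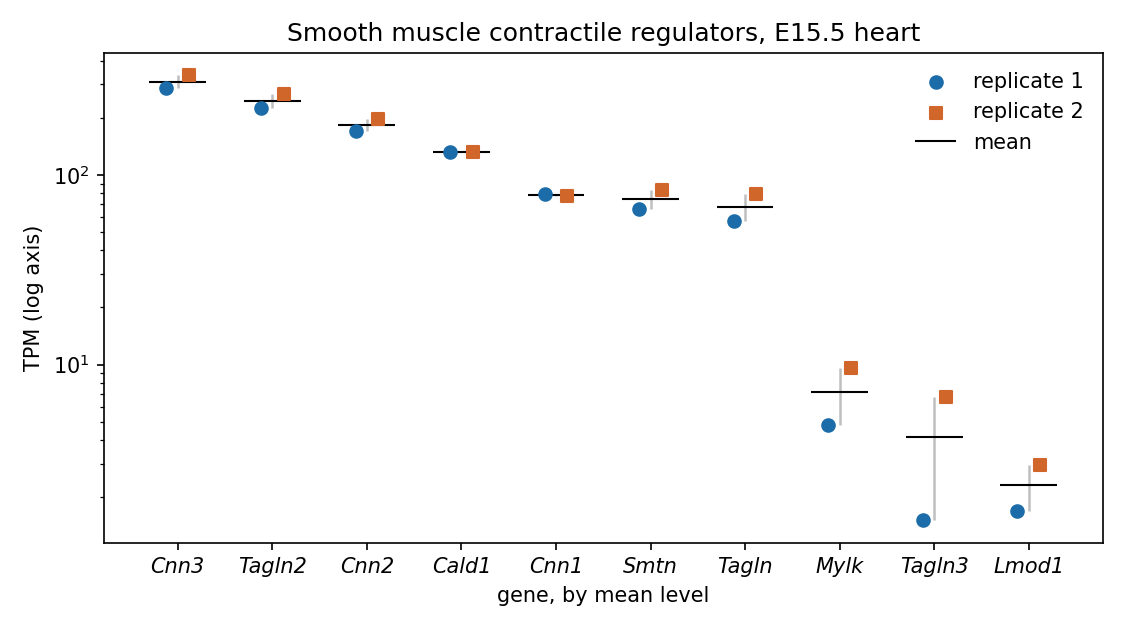
Level of each member in TPM (log axis) in replicate 1 (circles) and replicate 2 (squares), with the mean of the 2 libraries as a horizontal bar and their range as a grey line, ordered by mean. Cnn3, Tagln2, Cnn2 and Cald1 sit at 132 TPM or more, Cnn1, Smtn and Tagln between 56.9 and 83.3 TPM, and Mylk, Tagln3 and Lmod1 at 9.55 TPM or less with the widest relative gaps between the libraries.

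Inside each library the smooth muscle member was then set against its relatives, as a log2 ratio of TPM with 0.1 TPM added to both. Tagln was lower than Tagln2, with a ratio of -1.99 in replicate 1 and -1.75 in replicate 2 (mean -1.87 ± 0.17, SD, n = 2), so that Tagln2 was 3.97-fold and 3.37-fold above it. Of the summed transgelin TPM, Tagln held 20.0% in replicate 1 and 22.4% in replicate 2, Tagln2 held 79.5% and 75.6%, and Tagln3 held 0.531% and 1.92%. The neuronal member was therefore a small part of the family in both pools. Tagln exceeded Tagln3 by a log2 ratio of 5.15 in replicate 1 and 3.53 in replicate 2. Both genes were higher in replicate 2, by 1.39-fold for Tagln and 4.27-fold for Tagln3.

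Cnn1 was lower than both of its relatives in both libraries. Its log2 ratio to Cnn2 was -1.11 in replicate 1 and -1.34 in replicate 2 (-1.23 ± 0.17), and that to Cnn3 was -1.86 and -2.11 (-1.98 ± 0.18). Cnn1 held 14.7% of the summed calponin TPM in replicate 1 and 12.7% in replicate 2. Cnn2 held 31.8% and 32.3%, and Cnn3 held 53.5% and 54.9%. In both families a broadly expressed relative thus held the largest share, Tagln2 among the transgelins and Cnn3 among the calponins.

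The kinase and the leiomodin of smooth muscle were set against the heart's own relatives. Mylk had 4.78 TPM in replicate 1 and 9.55 TPM in replicate 2, against 184 and 175 TPM for Mylk3, the kinase of cardiac muscle. Their log2 ratio was -5.24 in replicate 1 and -4.18 in replicate 2 (-4.71 ± 0.75). Lmod1 stood at 1.69 and 2.97 TPM, against 42.5 and 31.6 TPM for Lmod2, the leiomodin of cardiac thin filaments, with log2 ratios of -4.57 and -3.37 (-3.97 ± 0.85). The cardiac relative was higher in both libraries, by 38.4-fold and 18.3-fold for the kinase pair and by 25.2-fold and 10.6-fold for the leiomodin pair. Taken from counts without length normalization, the mean log2 ratio was -3.68 for the kinase pair and -2.99 for the leiomodin pair.

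**Figure D2:**
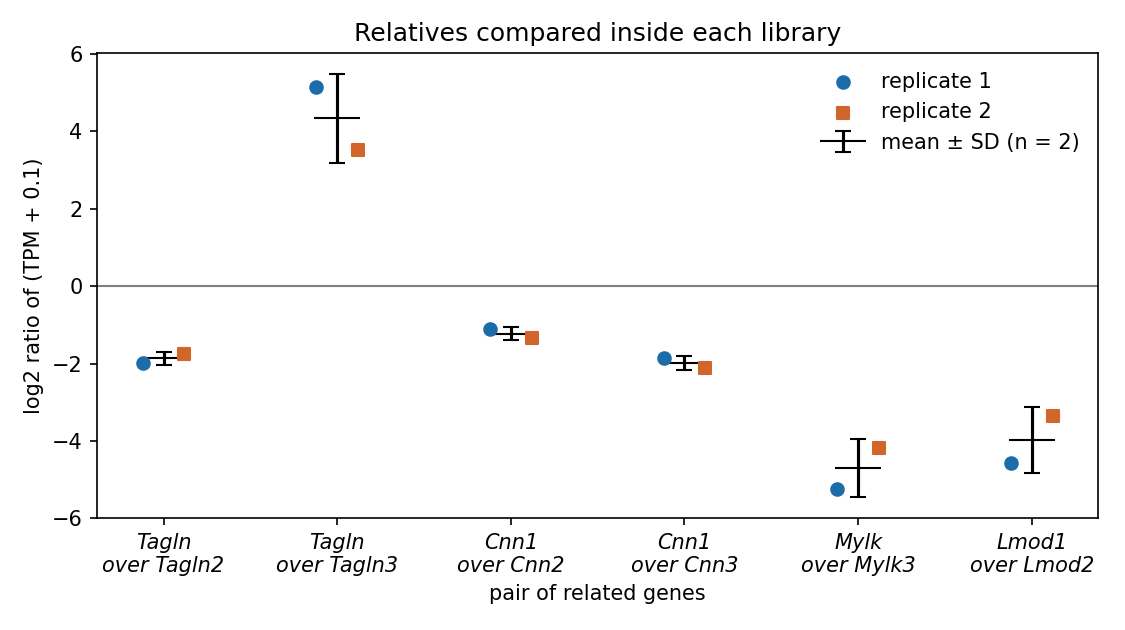
Log2 ratio of (TPM + 0.1) of each smooth muscle gene over its relative inside replicate 1 (circles) and replicate 2 (squares), with the mean and SD of the 2 libraries. All pairs but Tagln over Tagln3 lie below 0 in both libraries, from -1.11 for Cnn1 over Cnn2 to -5.24 for Mylk over Mylk3.

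The 2 pools were compared as replicate 1 over replicate 2, with no replicate check since each is 1 pool. Of the 10 members, 3 were past 1.5-fold, where 11.9% of the 13823 genes detected in both pools were. All 3 were lower in replicate 1, as were 10.6% of genes, and no member was past it higher in replicate 1, as were 1.31% of genes. The median log2 ratio was -0.29 over the members and -0.18 over all these genes, and a ratio between the libraries on the TPM scale is read against this -0.18. The ratios of relatives inside a library do not carry it. On edgeR's TMM scale of the counts, a normalization that centres on the bulk of genes, 5.39% of genes were past 1.5-fold lower in replicate 1 and 3.79% higher, and 2 members were past it, Tagln3 and Mylk, both lower in replicate 1.

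Tagln3 differed most, with 1.51 TPM in replicate 1 against 6.77 TPM in replicate 2, a log2 ratio of -2.09 (exact 95% interval -2.61 to -1.74, counting error only). Mylk followed with a log2 ratio of -0.98 (-1.11 to -0.89), and Lmod1 with -0.78 (-1.07 to -0.56). Relative to the median gene these values were -1.91 for Tagln3, -0.80 for Mylk and -0.60 for Lmod1. Under scaling by the added spike-in RNA, which raises every log2 ratio by 1.14 at the median, Tagln3 was still past 1.5-fold lower in replicate 1, while Mylk turned to 0.15 and Lmod1 to 0.34. The directions of Mylk and Lmod1 are thus relative to the bulk of genes.

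The other 7 members lay within 1.5-fold on the TPM scale, and all 7 were past it higher in replicate 1 under spike-in scaling, as were 88.5% of genes. Tagln had a log2 ratio of -0.47 (exact 95% interval -0.55 to -0.40) and Smtn one of -0.34. Cnn2, Cnn3 and Tagln2, the broadly expressed relatives, had ratios of -0.21, -0.23 and -0.24, or -0.03, -0.05 and -0.06 relative to the median gene. Cnn1 and Cald1 were level between the libraries on the TPM scale, at 0.02 and 0.01, and at 0.20 and 0.19 relative to the median gene. Tagln and Cnn1, both used as smooth muscle markers, thus stood on opposite sides of the median gene, at -0.29 for Tagln and 0.20 for Cnn1.

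**Figure D3:**
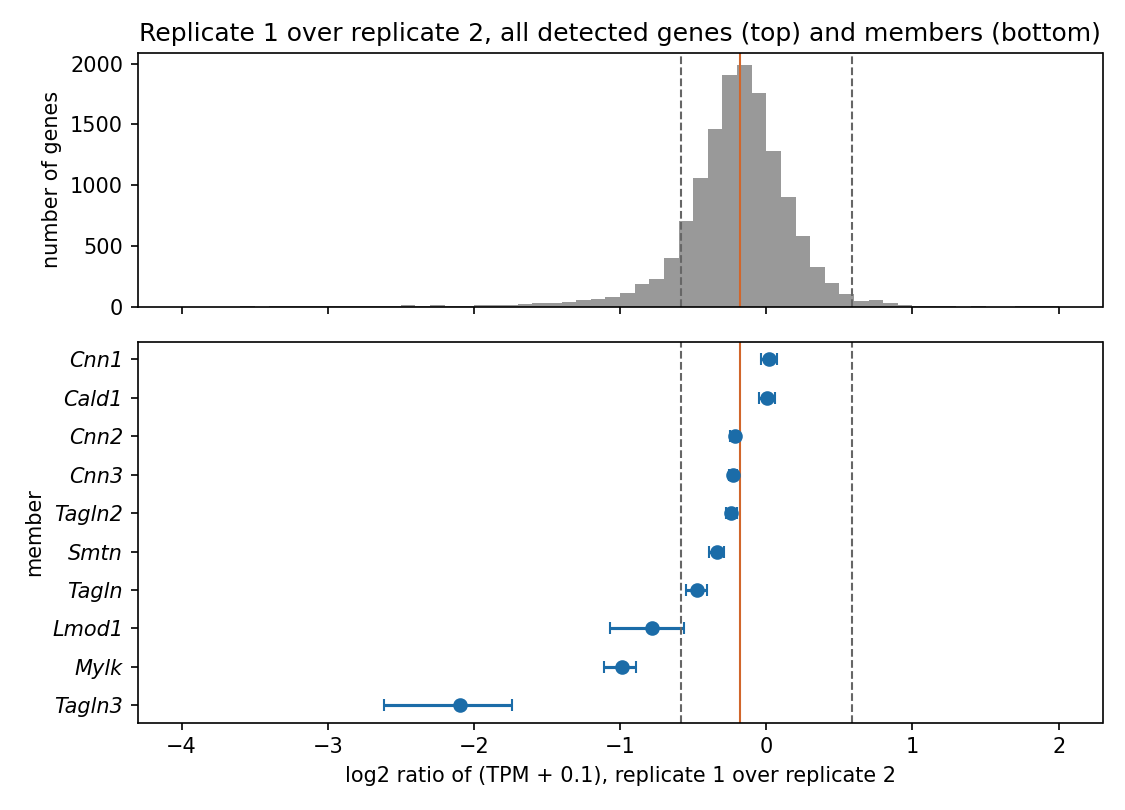
Number of genes (top, bars of 0.1 log2 units, with values beyond the axis in the end bars) and each member (bottom) by log2 ratio of (TPM + 0.1), replicate 1 over replicate 2, with exact 95% counting intervals for the members. The dashed lines mark 1.5-fold and the solid line the median gene at -0.18. Tagln3, Mylk and Lmod1 lie left of the lower dashed line.

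Markers of cell types were set beside these differences. Among 6 smooth muscle markers, Myh11, the smooth muscle myosin heavy chain, had 3.83 TPM in replicate 1 and 10.6 TPM in replicate 2, and Actg2, the enteric smooth muscle actin, had 14.5 and 34.3 TPM. The other 4 lay within 1.5-fold, among them Acta2, the vascular smooth muscle actin, at 1036 and 1065 TPM, Myocd at 51.1 and 56.7 TPM and Kcnmb1, the lowest of the list, at 1.11 and 1.26 TPM. Myh11 and Actg2 were thus past 1.5-fold lower in replicate 1, as were 10.6% of all detected genes, and the other 4 markers were not. Of 6 pericyte markers 1 was past 1.5-fold, Notch3, the lowest of them, at 5.27 TPM in replicate 1 and 9.77 TPM in replicate 2.

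Markers of neurons and of neighbouring organs differed more. The summed level of 8 neuron and neural crest markers was 11.5 TPM in replicate 1 and 61.9 TPM in replicate 2, and the 3 of them at 1 TPM or more in both libraries were all past 1.5-fold. They include Tubb3, neuronal tubulin, at 1.71 and 17.7 TPM and Stmn2, the highest of the list, at 5.70 and 22.5 TPM. Elavl3 was the lowest at 0.07 and 0.60 TPM, and none of the 8 was at 0. The 5 thymus markers summed to 11.0 TPM in replicate 1 and 108 TPM in replicate 2, the 4 lung epithelium markers to 129 and 322 TPM, and the 4 liver markers to 12.8 and 98.3 TPM. Lck and Cd8a were the highest and lowest thymus markers, Sftpc and Nkx2-1 those of lung epithelium, and Afp and Ttr those of liver. All the markers of these 4 lists were higher in replicate 2. Their part in the values of Tagln3, Mylk and Lmod1 was not tested.

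Markers of the heart's main cell types were closer between the pools. No marker was past 1.5-fold among the 6 of cardiac muscle, which summed to 14889 TPM in replicate 1 and 12413 TPM in replicate 2. None was past it among the 6 of fibroblasts and valves either, at 2276 and 2759 TPM, or the 5 of endothelium, at 299 and 353 TPM. Of 5 epicardial markers 1 was past it, Krt19, at 35.6 and 68.0 TPM. Platelet markers, which bear on Tagln2 and Cnn2 as genes of blood cells, were level, with Pf4 at 34.2 and 34.6 TPM and Gp9, the lowest of its list, at 3.59 and 3.34 TPM. The 3 leukocyte markers were all past 1.5-fold lower in replicate 1, with Ptprc at 2.16 and 10.6 TPM and Lyz2, the highest, at 69.6 and 107 TPM, and their part in the levels of Tagln2 and Cnn2 was not tested. Of the 4 skeletal muscle markers, Acta1, which cardiac muscle also expresses, was highest at 152 and 147 TPM, Myog had 0.82 and 1.63 TPM, Myod1 had 0.09 and 0.26 TPM, and Pax7 was at 0 in both libraries.

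**Figure D4:**
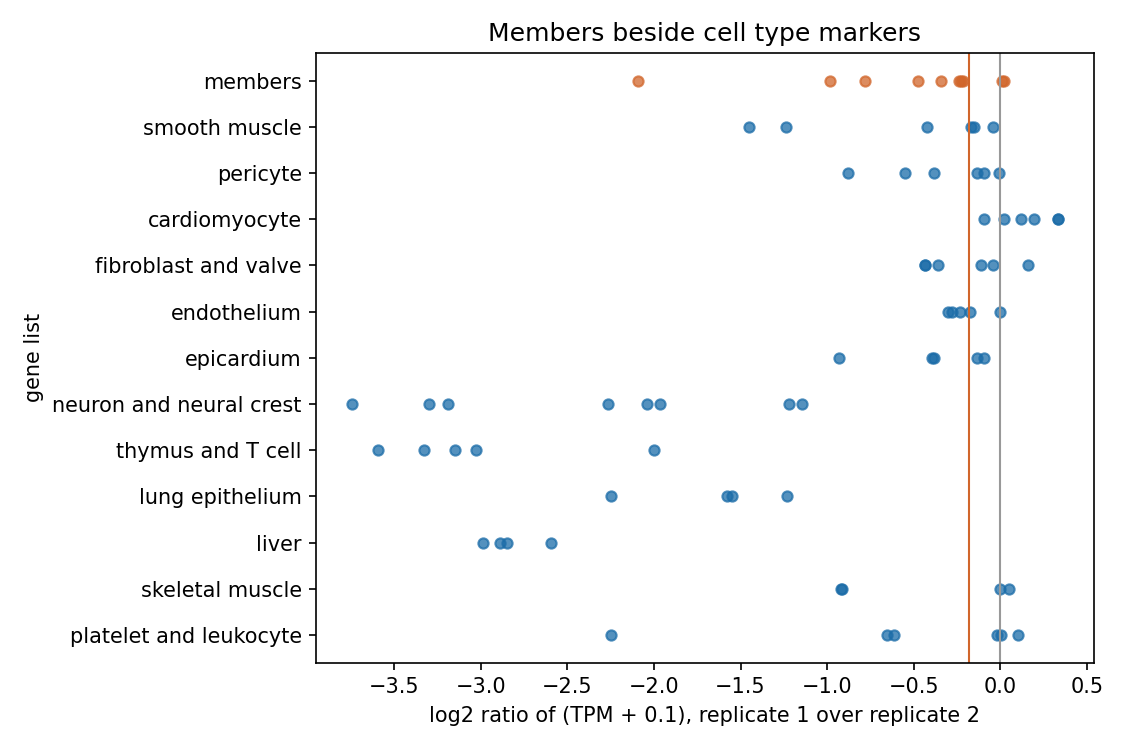
Log2 ratio of (TPM + 0.1), replicate 1 over replicate 2, for the 10 members (top row) and for the genes of each marker list, including markers below 1 TPM, 1 point a gene. The grey line marks equal TPM and the orange line the median gene at -0.18. Neuron, thymus, lung epithelium and liver markers lie far left, while cardiac muscle and endothelium markers lie near the lines.

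The heavy caldesmon form was a minor one in both pools. The heavy caldesmon of smooth muscle and the light form of most cells come from the same gene by the choice of a splice site at the end of a coding exon. In the heavy form the coding segment at chr6:34745619-34746639 (mm10, plus strand) is 1021 bases long. In the light form the exon ends after 397 bases and joins the exon that starts at position 34753443. The 60 bases around that branch point are shown for the heavy transcript and the most abundant light one, with the shared 30 bases in lower case and the bases that follow them in capitals.
Cald1-205, heavy: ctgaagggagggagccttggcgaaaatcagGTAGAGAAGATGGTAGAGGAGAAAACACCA
Cald1-203, light: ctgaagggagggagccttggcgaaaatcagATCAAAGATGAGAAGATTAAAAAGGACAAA
The 624 bases found only in the heavy form encode the repeated, highly charged middle of the protein. Of their 208 codons 28.8% were GAA or GAG, the codons of glutamate, against 16.8% of the 530 codons of the light form.

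The deposited percent of each gene's TPM gave the heavy form, Cald1-205, 1.81% in replicate 1 and 1.83% in replicate 2. That is 2.40 TPM (the authors' bounds 1.45 to 2.97) in replicate 1 and 2.41 TPM (1.36 to 3.16) in replicate 2. The 4 light transcripts with a complete coding sequence held 12.6% and 14.8%, of which Cald1-203 held 12.6% and 13.7%. Among the 5 complete forms alone, the heavy form made up 12.5% of TPM in replicate 1 and 11.0% in replicate 2, so the light form was the main one in both pools. Another 3.33% and 2.43% belonged to Cald1-210, a fragment whose coding segment ends at the same splice site as that of the heavy form.

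Most of the Cald1 TPM lay outside the complete forms. Cald1-211, a protein-coding model of 956 bases that breaks off at its 3′ end, held 48.1% of the TPM in replicate 1 and 45.5% in replicate 2. Cald1-215, a retained intron of 743 bases, held 27.8% and 30.2%. Both are short, and a short transcript needs fewer reads for the same TPM. Counted as reads, the complete light forms held 38.6% in replicate 1 and 43.6% in replicate 2, the incomplete models 34.5% and 31.0%, and the heavy form 6.59% and 6.39%. Which form is largest therefore changes with the measure, whereas the heavy form stayed below the complete light forms by both.

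The transcripts of Cald1 also split by where they begin. The 7 that begin between positions 34598500 and 34598620 held 80.0% of the TPM in replicate 1 and 80.2% in replicate 2, and 53.7% and 54.0% of the reads. The 3 that begin between 34709442 and 34709634, further down the gene, held 14.0% and 14.8% of the TPM and 42.9% and 43.4% of the reads. Among the complete forms the downstream start was ahead, with Cald1-203 at 16.7 TPM in replicate 1 and 18.0 TPM in replicate 2. The complete forms of the upstream start were Cald1-205, at 2.40 and 2.41 TPM, Cald1-202, at 0 and 1.39 TPM, and Cald1-204, at 0 in both. Both starts were thus in use in each pool, and the shares differed little between the pools.

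Smtn encodes a long smoothelin, known from vascular smooth muscle, and a short one, known from visceral smooth muscle, that begins inside the gene. The 4 full-length transcripts held 69.3% of the TPM in replicate 1 and 72.3% in replicate 2, led by Smtn-202, with 2763 coding bases, at 53.3% and 53.2%. Smtn-203, with 2769 coding bases, held 15.1% and 16.4%. Smtn-201, which begins at position 3527937 and has 1308 coding bases, held 22.6% and 18.4%, equal to 14.9 TPM in replicate 1 and 15.3 TPM in replicate 2. The full-length transcripts were thus ahead in both libraries, and by reads their share was 84.2% and 86.8%.

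Of Mylk, the files used here list 2 of the 8 transcripts of GENCODE M21. Mylk-201, which encodes the long kinase with 5850 coding bases, held 79.6% of the TPM in replicate 1 and 79.9% in replicate 2, and Mylk-202, a retained intron, held 20.4% and 20.1%. The short kinase of smooth muscle and telokin, a kinase-free protein made from the 3′ end of the gene, were not quantified as separate transcripts. A protein-coding transcript with 477 coding bases at that end, Mylk-203 at chr16:34994807-35001363, is annotated in GENCODE M21 and was not analysed here. Reads from exons that these forms share with the long one count towards Mylk-201, so the long kinase cannot be told apart from them here. Such reads are divided by the length of the long model, which limits the Mylk TPM, its rank and its ratio to Mylk3.

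**Figure D5:**
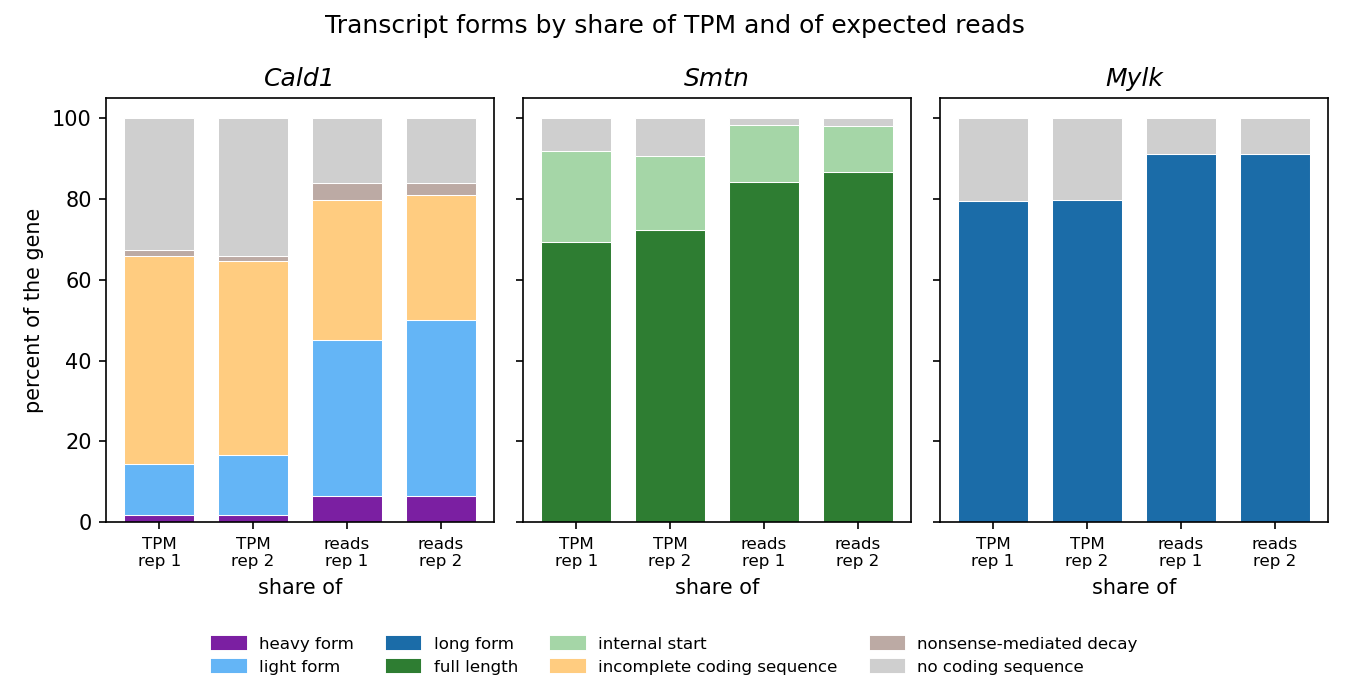
Percent of each gene held by classes of its transcripts, for Cald1, Smtn and Mylk, as a share of the gene's TPM (left pair of bars, replicate 1 then replicate 2) and of its expected reads (right pair). For Cald1 the complete light and heavy forms make up a small part of TPM and a larger part of reads, while for Smtn the full-length forms lead by both measures. For Mylk the long form stands beside a retained intron only, since the short kinase and telokin were not quantified as separate transcripts.

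The remaining members were quantified with few transcripts. Tagln, Tagln3, Cnn1, Cnn3 and Lmod1 are quantified with 1 transcript each. GENCODE M21 has 3 transcripts of Tagln, 5 of Cnn1 and 8 of Cnn3, so other forms of these 3 genes were not quantified apart. Tagln2-202 held 88.4% of the Tagln2 TPM in replicate 1 and 91.5% in replicate 2, and Tagln2-201, which encodes the same number of bases from another start, held 10.7% and 7.37%. Cnn2-201, with 915 coding bases, held 83.7% and 84.0%, and Cnn2-202, with 798, held 16.3% and 16.0%. For Tagln2 and Cnn2 the main transcript was the same in both libraries, which genes quantified with 1 transcript cannot show. Some members overlap genes on the opposite strand, and no source used here states if counting was by strand, so reads of such pairs may be mixed. Tagln overlaps Pcsk7, at 10.6 TPM in replicate 1 and 13.3 TPM in replicate 2, over 108 bases, and Smtn overlaps Gm11946, at 0.94 and 1.30 TPM, over 6700 bases. Npn2, opposite Cald1 over 235 bases, had 0.68 TPM in replicate 1 and 1.52 TPM in replicate 2. The remaining overlapping genes with a level were at 0.26 TPM or less in both libraries. Some overlapping genes have no level here. Among them are Gm48529, opposite Tagln over 3627 bases, and E130310I04Rik, opposite Mylk over 15820 bases. Gm42929 overlaps Cnn3 on the same strand over 1286 bases.

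Smooth muscle genes are classic targets of serum response factor, which binds the CArG box together with myocardin. The 250 bases before and 50 after the start of each gene in the RefSeq promoter table (GRCm38.p6) were searched for a perfect CArG box, a motif that matches alike on both strands. A box was found in 1 of 10 windows of the 9 members in that table, all but Tagln, compared with 1.63% of all 32851 windows. Among the partner genes described next, 5 of 44 windows (11.4%), which cover 34 genes, held one. The member with a box was Cnn2, at 56 bases before its start, and the box is in capitals in the 60 bases at chr10:79988519-79988578 (plus strand).
Cnn2: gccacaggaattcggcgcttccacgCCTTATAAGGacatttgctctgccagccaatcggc
A match is a description of these letters, not a bound site, and boxes outside the windows were not searched.

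The partner genes of smooth muscle contraction were present at varied levels. Of 46 genes listed, 44 matched by symbol, since 2 were older names of genes listed under the current one, and 41 reached 1 TPM in both libraries. Of these 41, 5 were past 1.5-fold lower in replicate 1, near the 10.6% of all detected genes that were. None was past it higher in replicate 1, as were 1.31% of genes. Myl9, the regulatory light chain that the Mylk kinase phosphorylates in smooth muscle, was the highest of the thick filament genes at 1285 and 1315 TPM, and Myh11 the lowest. Among the actins Actb was highest at 2013 and 2325 TPM and Actg2 lowest. Of the kinase and phosphatase genes, Rhoa led at 305 and 292 TPM, and Mylk2, the skeletal muscle kinase, was lowest at 0.13 and 0.10 TPM. Ppp1r14a, the smooth muscle inhibitor of myosin phosphatase, had 23.2 and 28.5 TPM, above Mylk in both libraries by TPM. By reads it was below, at 326 in replicate 1 and 357 in replicate 2, against 1049 and 1875 for Mylk. No gene of that list at 1 TPM or more was past 1.5-fold.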

How the data were processed

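Per the labels' protocols, mirVana reagents were used for extraction, a SMARTer Ultra Low manual is cited, and the input was 10 ng of RNA over 200 nt with spike-ins. Per the file headers, reads were aligned to the transcriptome and quantified by the authors against mm10 and GENCODE M4, and no source used here names the tools. Deposited expected counts are the authors' estimates of reads per feature. Deposited TPM are these divided by effective length and scaled to one total, with spike-ins in it. The deposited percent splits each gene's TPM over its transcripts. The authors also give bounds of each TPM, whose level is not stated.

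GENCODE M21, on the same build, named 42462 of 43346 Ensembl genes by stable identifier. The 26248 short features and 97 spike-ins were left out. Library ratios use log2(TPM + 0.1). Alternatives used expected counts, rounded to whole numbers for the TMM factor (edgeR 4.0.16) and size factors (DESeq2 1.42.0), in R 4.3.3. Coding sequences of the most abundant complete transcript of each paralog were aligned globally with Biopython 1.88. Transcript classes follow the annotated coding sequence. No sample was left out, and no p-value was computed. The rule for named genes took all members, the relatives a pair needs, the highest and lowest gene of each list and list genes past 1.5-fold given beside a member. Not every list gene it takes is named. Pf4, Ppp1r14a, Smtnl2, Myog, Myod1 and the overlapping genes were chosen after their values were seen. The members and lists were chosen with earlier results of these data known. Exact 95% intervals on ratios of 2 counts cover counting error only, and no source used here states that molecular identifiers were used.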

Additional observations from a re-analysis of the deposited data

How the results depend on the processing

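No paired analysis was possible because there is 1 group. The pair ratios kept their direction under every pseudocount, the posterior mean TPM, counts without length normalization and either library alone. Counts without length normalization moved Cnn1 over Cnn3 to -1.73, Mylk over Mylk3 to -3.68 and Lmod1 over Lmod2 to -2.99. The count of members past 1.5-fold was 2 or 3 under a pseudocount of 1 TPM, TMM, DESeq2 size factors, total counts, no filter and centring on the median gene, the last chosen after seeing the data. Lmod1 missed the threshold at a pseudocount of 1 TPM (-0.56) and on the TMM scale (-0.58). At 2-fold, 1 member (Tagln3) and 3.53% of genes were past it. Under spike-in scaling, 8 members and 89.6% of genes were past 1.5-fold, 7 of the members higher in replicate 1, and Mylk (0.15) and Lmod1 (0.34) changed sign. As a share of reads, the mean percent was 6.49 for the Cald1 heavy form, 41.1 for the complete light forms, 12.8 for the internal Smtn start and 91.1 for the long Mylk form; from the posterior mean the heavy form was at 1.72 (1.715 before rounding). TPM was also rescaled to a total without spike-ins, short features, hemoglobin genes and the mitochondrial genome. This moved the mean level of 7 members by more than their SD, to 396 TPM for Cnn3 and 169 TPM for Cald1. The posterior mean moved Cnn1 (76.8 TPM) and Cald1 (131 TPM). Depth limits Tagln3 most, at 56 reads in replicate 1.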

Other observations

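Transcription factors of smooth muscle genes were present in both pools. Myocd, the coactivator that drives smooth muscle genes with serum response factor and is also active in cardiac muscle, was the highest of 4 such factors at 51.1 TPM in replicate 1 and 56.7 TPM in replicate 2. Srf itself was the lowest, at 5.63 and 6.80 TPM. Mrtfa, a related coactivator that responds to actin, was the only one of the 4 past 1.5-fold, at 9.44 and 15.6 TPM.

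Among relatives of leiomodin and smoothelin, Tmod1, the tropomodulin that caps filament ends in cardiac muscle, was highest at 161 and 140 TPM, and Smtnl1 was lowest at 0.20 and 0.31 TPM. Tmod2, a tropomodulin of neurons, was past 1.5-fold at 4.40 and 7.12 TPM. Smtnl2, a relative of smoothelin, had 93.9 TPM in replicate 1 and 109 TPM in replicate 2, above Smtn in both libraries. Of 9 further smooth muscle genes, Des was highest at 346 and 307 TPM and Kcnmb1 lowest, while Nrip2 was past 1.5-fold at 1.87 and 3.30 TPM.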
